A study of Mus musculus with 30 samples.

Results

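The cytosolic ribosome is built from ribosomal RNA and a set of ribosomal proteins, each encoded by its own gene. The members described here are the mouse genes of these proteins, named Rpl for the large subunit and Rps for the small subunit, including the acidic stalk genes Rplp0, Rplp1 and Rplp2 and the laminin-binding Rpsa. They were chosen by symbol and by a mean level of at least 10 CPM, the usual library-size-scaled count, over all 30 libraries. This gave 76 genes, 30 of the small and 46 of the large subunit, out of 83 rows whose symbols follow the pattern and 55401 rows in the table. The lowest members were Rpl17 at 15.8 CPM, Rpl39 at 19.3 CPM and Rpl35a at 21.02 CPM. Of the 7 genes under the limit, Rps27l (6.24 CPM), Rpl3l (0.995 CPM), Rpl39l (0.0485 CPM) and Rpl10l (0 CPM) are annotated as protein-coding. Rps4l (6.82 CPM), Rpl6l (5.52 CPM) and Rpl32l (2.08 CPM) are annotated as processed pseudogenes. All 76 members also passed the filter on low counts, so none was lost before testing.

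Polyadenylated RNA was sequenced from bilateral punches of the nucleus accumbens of male C57Bl/6J mice, each library from 1 animal. The mice had tibial SNI (spared nerve injury, a model of neuropathic pain) or sham surgery, and after 4 weeks were injected intraperitoneally 2 times a day for 3 weeks with desipramine at 15 mg/kg, tianeptine at 30 mg/kg or saline. Desipramine, a tricyclic, inhibits the noradrenaline transporter, and tianeptine is an atypical antidepressant that acts on the mu opioid receptor. The groups were SNI desipramine (4 mice), SNI tianeptine (6 mice), SNI saline (5 mice), sham desipramine (4 mice), sham tianeptine (6 mice) and sham saline (5 mice). The mice carried no transgene or mutation by the labels, and the labels call sham saline the control.

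Libraries held 24.51 to 120.7 M counts (M, mega). From the numbering in their labels they fall into 2 library sets: set 1 with 24 libraries of 24.51 to 37.7 M counts, 4 of every group, and set 2 with 6 libraries of 98.04 to 120.7 M counts, which holds saline and tianeptine mice and no desipramine mouse. The main fit carries the set as a term. Alternative fits named as having no set term, using set 1 alone or using a replicate block do not. Markers of medium spiny neurons, the main cell of the accumbens, were present in all libraries: Drd1 (dopamine receptor) ranged from 19.3 to 271 CPM with a median of 190 CPM, and Ppp1r1b (DARPP-32) from 73.4 to 897 CPM with a median of 609 CPM. The summed level of the 16 medium spiny neuron markers was lowest in SNI desipramine library 2 (1549 CPM) and next lowest in SNI desipramine library 3 (4687 CPM), against 5536 to 11314 CPM in the other 28. Sham saline library 2 had the lowest summed mitochondrial genome mRNAs (8622 CPM), and sham saline library 3 the highest summed fibroblast and meningeal markers (653 CPM, against 140.0 to 308 CPM in the other 29). Sham saline library 2 was also the highest of all libraries in the summed level of the members (7215 CPM). Leaving it out is therefore not independent of the members' values. SNI desipramine libraries 2 and 3 and sham saline libraries 2 and 3 stand apart on these marker and mitochondrial sums, and counts that matter are also given without these 4. Those fits keep only libraries 1 and 4 of SNI desipramine, so a call lost in them can also follow from the smaller number of animals. By the chi-square per degree of freedom between libraries, SNI desipramine libraries 1 and 3 were the closest pair of their group (13.6, against 21.8 for libraries 1 and 4). Library 3 was thus not apart by that measure. In tissue pieces, fewer cells of a type and less RNA per cell cannot be told apart.

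Ribosomal protein mRNAs are among the shortest and most abundant mRNAs of a cell, and cells make their proteins in matched amounts. Most belong to the TOP class: the mRNA begins with a C followed by an unbroken run of pyrimidines, the terminal oligopyrimidine tract, through which the mTOR kinase and the RNA-binding protein Larp1 control their translation and stability. In neurons, ribosomes lie in the cell body and in dendrites, and local translation supports synaptic plasticity.

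The start sites of several members show this tract in the mouse reference sequence. The windows below hold 20 bases before and 20 bases from the RefSeq transcription start (build GRCm38.p6), 5′ to 3′ on the gene's strand, with the pyrimidine tract that opens the mRNA in capitals. They are shown because this tract defines TOP mRNAs, and come from the 13 members with a tract at the annotated start: the longest (Rpl15), the translation-signalling protein Rps6, the single member with a positive fold change in SNI desipramine against SNI saline (Rps15a), the stalk gene Rplp2, and Rps27.
Rpl15, chr14:18270967-18271006, minus strand: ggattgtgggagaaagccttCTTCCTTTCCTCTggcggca
Rps6, chr4:86857348-86857387, minus strand: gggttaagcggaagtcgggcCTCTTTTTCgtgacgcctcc
Rps15a, chr7:118116128-118116167, minus strand: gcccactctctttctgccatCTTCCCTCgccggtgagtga
Rplp2, chr7:141447631-141447670, plus strand: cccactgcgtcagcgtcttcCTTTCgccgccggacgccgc
Rps27, chr3:90213629-90213668, minus strand: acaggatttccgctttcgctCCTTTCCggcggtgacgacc
Of the 76 members, 56 had a promoter entry in the RefSeq table. A C at the annotated start followed by at least 4 pyrimidines (C or T) stood in 13 of these 56 (23.2%), against 3.01% of all 27025 genes in the table. The 13 tracts were 5 to 13 bases long, with a median of 8. A run of this kind that began within 20 bases of the start was found in 40 of the 56 (71.4%), against 43.9% of all genes. Away from the start itself, only runs whose first C did not follow a C or T were counted. RefSeq starts can lie some bases from the start used in this tissue, so a member with no match here is only one that does not meet this rule. Its window can still hold a pyrimidine run that opens with a T.

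Together the members took 0.534% to 0.716% of the counts of a library. Their mean levels had a median of 71.1 CPM, with Rpl4 at 334 CPM and Rpl3 and Rpl8 at 196 CPM each. All of these are core proteins of the large subunit. Per kilobase of exon, with the length taken as the union of all annotated exons of a gene, the highest mean levels were those of the stalk protein Rplp1 (349 CPM per kb), the small-subunit head protein Rps15 (274 CPM per kb) and Rpl4 (166 CPM per kb). The median over the members was 37.4 CPM per kb. The levels depend on the length used: per kilobase of the longest coding transcript, Rplp1 stood at 349, Rps15 at 301 and Rpl4 at 217 CPM per kb. Rpl35a stood at 40.5 CPM per kb on that length and at 5.96 CPM per kb of all its annotated exons, and Rpl30 at 40.5 and 11.9 CPM per kb. Rpl17 was at 11.9 CPM per kb on either length. Many members have near-identical pseudogenes: the share of a member's 50-base stretches found in no other annotated gene was lowest for Rpl35 (4.9%) and had a median of 52.4%, so levels between members depend on how shared reads were counted, and the sources used here do not say how.

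The summed level of the 76 genes gives the simplest view of the groups. SNI desipramine libraries 1 to 4 summed to 5729, 5695, 5662 and 5766 CPM. In SNI tianeptine the sums ran from 5698 to 6376 CPM with a median of 6049 CPM. SNI saline libraries summed to 6431, 6694, 6703 and 6088 CPM in set 1 and to 5748 CPM in set 2. Within set 1 every SNI desipramine library lay below every SNI saline library, and the single SNI saline library of set 2 lay inside the desipramine range.

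The sham groups were more spread. Sham desipramine libraries summed to 5498, 5971, 5881 and 6699 CPM, and sham tianeptine ran from 5423 to 6601 CPM with a median of 5943 CPM. Sham saline libraries summed to 5550, 7215, 5976 and 5642 CPM in set 1 and 5786 CPM in set 2. The 4 SNI desipramine sums therefore lay inside the range of sham saline, and the second sham saline library alone exceeded every other library of the series. Group means were 5713 ± 44.6 CPM in SNI desipramine (n = 4), 6028 ± 282 CPM in SNI tianeptine (n = 6) and 6333 ± 412 CPM in SNI saline (n = 5), and 6012 ± 502 CPM in sham desipramine (n = 4), 5989 ± 447 CPM in sham tianeptine (n = 6) and 6034 ± 680 CPM in sham saline (n = 5), all ± SD.

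**Figure D1:**
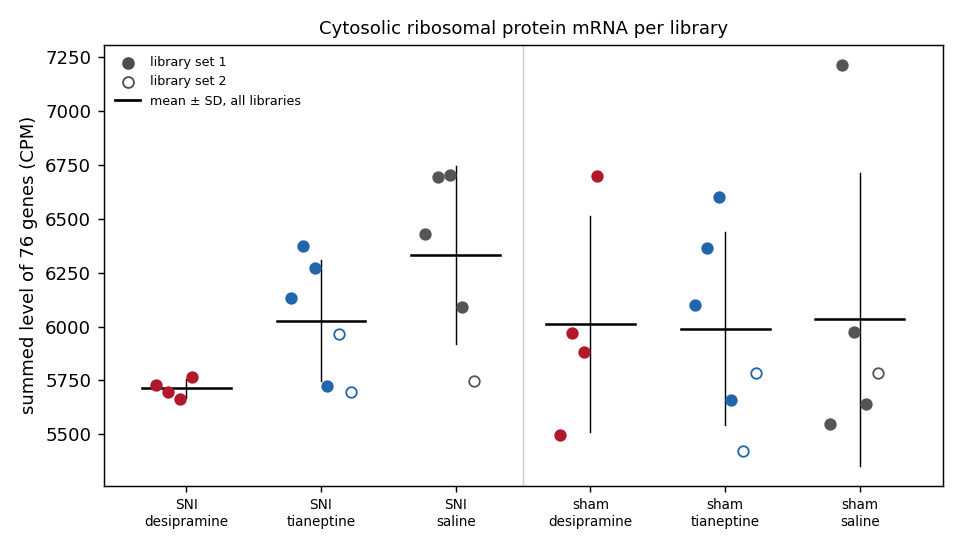
Summed level of the 76 ribosomal protein genes (y axis, CPM) in each library by group (x axis); filled points are library set 1, open points set 2, and lines give the mean ± SD of all libraries of a group. The 4 SNI desipramine libraries sit between 5662 and 5766 CPM, below the 4 SNI saline libraries of set 1 (6088 to 6703 CPM), while the sham groups overlap one another and sham saline library 2 stands at 7215 CPM.

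The comparison of desipramine with saline in mice with nerve injury asks what the tricyclic does to the members in neuropathic animals. The log2 fold change was below 0 for 75 of 76 members, beside 49% of all genes, and it ranged from -0.34 (Rpl29) to 0.16 (Rps15a), with a median of -0.17, which is a level 0.886 times that of saline, beside a median of 0.01 over all 23736 genes tested. No member passed edgeR's quasi-likelihood test with Benjamini-Hochberg adjustment at 0.05, and neither did any other gene (0% of genes). At an unadjusted p under 0.05, 47 members were lower and 0 higher, against 6.81% of all genes lower and 10.7% higher. DESeq2 called 15 members and 555 genes, and limma-voom called 0 members. The 4 libraries that stand apart changed this little: without them 39 members were lower at an unadjusted p under 0.05, against 3.47% of all genes, 74 of 76 had a negative log2 fold change, against 49.6% of all genes, and the median was -0.17. Leaving out SNI desipramine library 4 instead gave 21 members and 3352 genes (13.9%) called, so the absence of calls rests on that library.

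Both subunits shared in it. Of the small-subunit members 29 of 30 were lower with a median log2 fold change of -0.19, and of the large-subunit members 46 of 46 were lower with a median of -0.17. In set 1, every SNI desipramine library lay below every SNI saline library for 47 members, against 3.68% of all genes. Over both sets this held for 23 members, against 1.12% of all genes, among them Rpl7a, Rpl41, Rplp0, Rpsa, Rps4x, Rps7 and Rps18. These levels were not adjusted for the set, and desipramine has no set 2 library, so this count also depends on how a member differs between the sets. Rpl7a and Rpsa were higher in set 2 (log2 difference 0.47 and 0.33), and Rps14, separated in set 1 only, was lower (-0.40). Rplp0 and Rps18 differed little (-0.04 and 0.01). The fold change of a member varied little with its mean level, exon length or share of unique 50-base stretches (Pearson r of 0.02, 0.15 and 0.11 over the 76 genes, which share the same libraries).

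Rpl7a, a large-subunit protein that contacts ribosomal RNA, had the smallest p of the members. Its level was 31.9, 32.3, 32.0 and 34.1 CPM in SNI desipramine, against 40.7, 40.6, 38.4 and 37.8 CPM in SNI saline of set 1 and 52.6 CPM in set 2. The groups did not overlap, and the set 2 library was high as all set 2 libraries were for this gene. The log2 fold change was -0.26 (SE 0.054, unadjusted p 4.68e-05, edgeR adjusted p 0.0564). The gene lies at chr2:26910764-26913318 (plus strand, mm10), and 18.8% of its 50-base stretches occur in no other gene.

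Rpl36a, at the tRNA exit site of the large subunit and on the X chromosome (chrX:134585654-134588062, plus strand), stood at 34.01, 36.4, 33.9 and 38.2 CPM in SNI desipramine, against 42.4, 44.9, 44.2 and 43.0 CPM in SNI saline of set 1 and 36.7 CPM in set 2. The groups were apart within set 1, and the set 2 library lay inside the desipramine range. The log2 fold change was -0.27 (SE 0.064, edgeR adjusted p 0.0769).

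Rps14, a protein of the small-subunit platform, had 116, 108, 105 and 114 CPM in SNI desipramine, against 125, 138, 138 and 126 CPM in SNI saline of set 1 and 98.0 CPM in set 2. Again every desipramine library was below the set 1 saline libraries and above the set 2 library. The log2 fold change was -0.24 (SE 0.058, edgeR adjusted p 0.0769).

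Members with known further roles gave values of the same sign. Rplp0, the base of the acidic stalk that recruits elongation factors, averaged 103 ± 0.746 CPM in SNI desipramine and 115 ± 8.69 CPM in SNI saline (log2 fold change -0.17, edgeR adjusted p 0.209). Its partners Rplp1 and Rplp2 had log2 fold changes of -0.22 (adjusted p 0.221) and -0.15 (adjusted p 0.368). Rps6, the substrate of S6 kinase that serves as a readout of mTOR signalling in neurons, averaged 57.8 ± 4.50 CPM in SNI desipramine and 63.1 ± 3.57 CPM in SNI saline (log2 fold change -0.10, adjusted p 0.474). Rpsa, also known as the laminin receptor precursor, had a log2 fold change of -0.17 (adjusted p 0.324), and Rpl41, one of the smallest eukaryotic proteins, of -0.30 (adjusted p 0.116). None of these passed the test.

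Rps15a, a small-subunit protein, was the single member with a higher level. It stood at 94.9, 124, 113 and 80.7 CPM in SNI desipramine, against 94.0, 82.9, 106 and 91.1 CPM in SNI saline of set 1 and 81.9 CPM in set 2 (log2 fold change 0.16, edgeR adjusted p 0.383). The groups overlapped, and the desipramine libraries were the most spread of all groups. The summed medium spiny neuron markers of the same 4 libraries were 6530, 1549, 4687 and 10184 CPM, so Rps15a was highest in the library with the fewest such markers and lowest in the library with the most. The summed level of the 76 members in these libraries was 5729, 5695, 5662 and 5766 CPM. The part of the markers in these values was not tested.

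**Figure D2:**
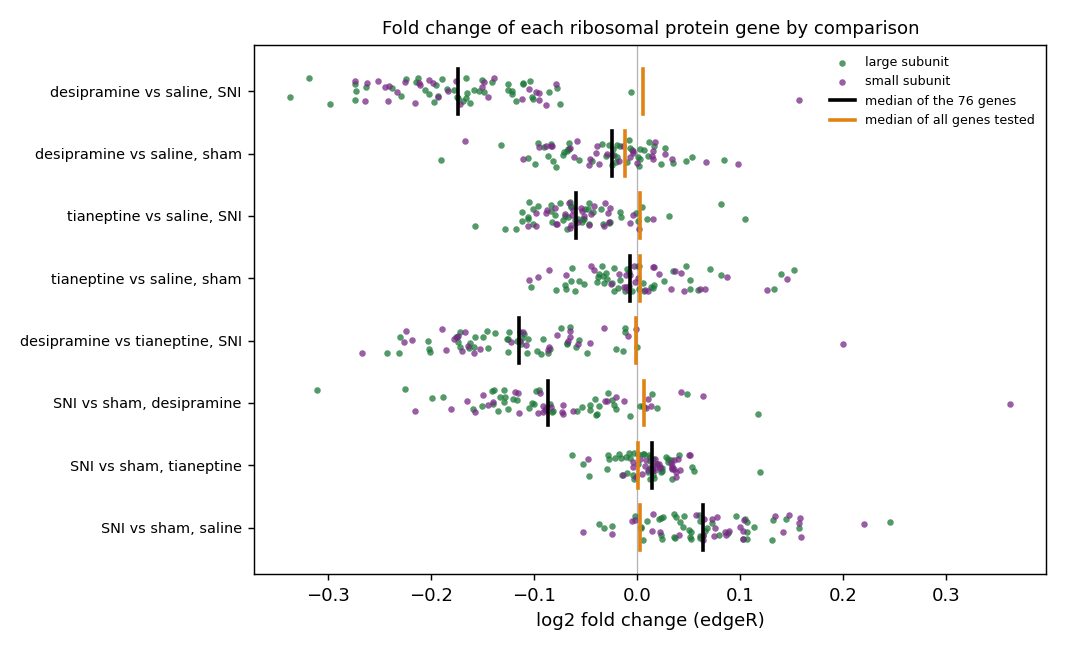
Log2 fold change from edgeR (x axis) of each of the 76 genes in 8 comparisons (rows); green points are large-subunit and purple points small-subunit genes, the black bar is their median and the orange bar the median of all genes tested. The genes lie furthest to the left in desipramine against saline in SNI mice (median -0.17) and furthest to the right in SNI against sham under saline (median 0.06), with Rps15a as the point on the far right of SNI against sham under desipramine (0.36).

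In sham mice the same drug gave no such shift. The log2 fold change was below 0 for 54 of 76 members, beside 53.3% of all genes, with a median of -0.02 beside -0.01 over all genes. EdgeR called 0 members and 0 genes (0% of genes), DESeq2 called 0 members and 22 genes, and limma-voom 0 members. Of the members, 1 was lower and 0 higher at an unadjusted p under 0.05, against 3.29% of all genes lower. That member was Rpl39, a small protein in the wall of the exit tunnel (log2 fold change -0.19, SE 0.067, unadjusted p 0.00894, edgeR adjusted p 0.547). Its level was 17.1, 17.1, 16.6 and 17.2 CPM in sham desipramine, against 17.2, 22.5, 20.1 and 18.4 CPM in sham saline of set 1 and 21.5 CPM in set 2. Every desipramine library was below every saline library, though only narrowly below the first. The count of negative members rests on sham saline library 2: without it 15 of 76 were below 0, against 53.3% of all genes, and the median was 0.04, and without the 4 libraries 11 were below 0, against 49.8% of all genes, and the median was 0.06.

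Whether desipramine acted differently in SNI and sham mice was tested directly as an interaction. The difference, SNI minus sham, was below 0 for 71 of 76 members (48% of all genes) with a median of -0.13, beside 0.01 over all genes. EdgeR called 0 members and 0 genes (0% of genes), limma-voom called 0 members, and DESeq2 called 1 member, Rps14, and 100 genes. Of the members, 15 were lower and 0 higher at an unadjusted p under 0.05, against 5.01% of all genes lower. The members with the smallest p were Rps14 (difference -0.34, edgeR adjusted p 0.227), Rpl7a (-0.26, 0.236), Rpl41 (-0.38, 0.276) and Rps15 (-0.28, 0.287), each given with its log2 difference and adjusted p. Without sham saline library 2 there were 42 members lower at an unadjusted p under 0.05, against 7.1% of all genes, and edgeR called 2 members and 20 genes (0.0842%). Without the 4 libraries 40 members were lower at an unadjusted p under 0.05, against 5.94% of all genes, with a median of -0.24 and 0 members called. Without SNI desipramine library 4 edgeR called 3 members and 957 genes (3.98%).

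Rps14 shows the pattern by library. Beside the SNI values above, it had 117, 126, 125 and 135 CPM in sham desipramine, against 108, 131, 120 and 107 CPM in sham saline of set 1 and 92.1 CPM in set 2. Sham desipramine libraries lay within or above the saline libraries (log2 fold change 0.10, edgeR adjusted p 0.722), whereas SNI desipramine libraries lay below those of SNI saline in set 1.

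Averaged over both surgeries, desipramine against saline gave a log2 fold change below 0 for 75 of 76 members (50.5% of all genes) with a median of -0.10, beside -0.00 over all genes. EdgeR called 0 members and 7 genes (0.0295% of genes), limma-voom called 0 members, and DESeq2 called 1 member, Rpl36a, and 132 genes. Of the members, 29 were lower and 0 higher at an unadjusted p under 0.05, against 5.36% of all genes lower. The smallest adjusted p was that of Rpl36a (log2 fold change -0.17, edgeR adjusted p 0.172), followed by Rpl7a (-0.13, 0.219), Rpl34 (-0.14, 0.234) and Rpl12 (-0.16, 0.239). Without the 4 libraries 5 members were lower at an unadjusted p under 0.05, against 2.99% of all genes, and without sham saline library 2 there were 9, against 4.92% of all genes.

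Tianeptine gave smaller differences. In SNI mice its log2 fold change against saline was below 0 for 68 of 76 members (48.8% of all genes), with a median of -0.06 beside 0.00 over all genes. EdgeR, DESeq2 and limma-voom each called 0 members, edgeR called 0 genes (0%), and 0 members had an unadjusted p under 0.05, against 1.2% of all genes lower and 1.67% higher. Within set 1 every SNI tianeptine library lay below every SNI saline library for 6 members, against 2.03% of all genes. Rpl7a, for example, ran from 36.4 to 55.4 CPM in SNI tianeptine with a median of 37.8 CPM, against 37.8 to 52.6 CPM in SNI saline with a median of 40.6 CPM, and the groups overlapped.

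In sham mice the log2 fold change of tianeptine against saline was below 0 for 42 of 76 members (49.1% of all genes) with a median of -0.01 beside 0.00 over all genes. EdgeR, DESeq2 and limma-voom called 0 members and edgeR called 0 genes (0%). At an unadjusted p under 0.05, 1 member was higher, against 3.72% of all genes, namely Rpl15 (log2 fold change 0.15, SE 0.053, unadjusted p 0.00855, edgeR adjusted p 0.714). Rpl15, whose tract is printed above, ran from 53.5 to 67.2 CPM in sham tianeptine with a median of 56.2 CPM, against 45.0 to 65.2 CPM in sham saline with a median of 49.3 CPM. Within set 1 its tianeptine libraries all lay above its saline libraries. Without sham saline library 2, 7 of 76 members were below 0, against 48.9% of all genes, with a median of 0.06, and 8 were higher at an unadjusted p under 0.05, against 4.14% of all genes. The tianeptine interaction of surgery and drug was below 0 for 65 members (50% of all genes) with a median of -0.05, with 0 members called by edgeR, DESeq2 and limma-voom and 0 at an unadjusted p under 0.05, against 1.96% of all genes lower and 2.24% higher. Without sham saline library 2, 13 members were lower at an unadjusted p under 0.05, against 3.53% of all genes, and without the 4 libraries 21 were, against 4.31% of all genes.

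Compared directly, desipramine against tianeptine in SNI mice was below 0 for 75 of 76 members (50.2% of all genes) with a median of -0.12 beside -0.00 over all genes. The drugs were given at different doses (15 and 30 mg/kg). EdgeR called 315 genes (1.33%) and 0 members, limma-voom called 0 members, and DESeq2 called 4 members and 1247 genes. At an unadjusted p under 0.05, 25 members were lower, against 9.04% of all genes, and 1 was higher, against 12.4%. The smallest p was that of Rpl7a (log2 fold change -0.20, edgeR adjusted p 0.0509), followed by Rps14 (-0.19, 0.0764) and Rpl5 (-0.18, 0.0843), a binder of the smallest ribosomal RNA of the large subunit. Every SNI desipramine library lay below every SNI tianeptine library for 7 members, against 1.18% of all genes. Without SNI desipramine library 4, edgeR called 14 members and 4825 genes (20.1%), and without the 4 libraries 13 members were lower at an unadjusted p under 0.05, against 2.38% of all genes. In sham mice the same comparison was below 0 for 53 members (53.4% of all genes) with a median of -0.03. EdgeR called 17 genes (0.0716%) and 0 members, DESeq2 called 0 members and 152 genes, limma-voom called 0 members, and 2 members were lower at an unadjusted p under 0.05, against 6.18% of all genes: Rpl39 (log2 fold change -0.16, edgeR adjusted p 0.351) and Rps27 (-0.17, 0.376).

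Nerve injury alone went the other way. In saline-treated mice, SNI against sham was above 0 for 68 of 76 members (50.6% of all genes), with a median log2 fold change of 0.06 beside 0.00 over all genes. Short non-members shifted the same way: under 1000 bases of exon their median was 0.05, beside 0.06 for members of that length. The medians were 0.06 and 0.07 from 1000 to under 1500 bases, and 0.04 and 0.09 from 1500 to under 2000. They were 0.03 and 0.05 from 2000 to under 3000 bases, and 0.00 and 0.06 from 3000 to under 5000. The part of length in this shift was not tested. EdgeR called 0 members and 0 genes (0%), and DESeq2 and limma-voom called 0 members. At an unadjusted p under 0.05, 9 members were higher and 0 lower, against 4.55% of all genes higher. The smallest p were those of Rpl21 (0.25, edgeR adjusted p 0.436), Rps14 (0.16, 0.436) and Rpl23 (0.13, 0.436), given as log2 fold changes and adjusted p. Rpl21 was at 54.4, 53.1, 57.8 and 51.5 CPM in SNI saline of set 1 and 45.7 CPM in set 2, against 44.7, 50.4, 45.6 and 37.8 CPM in sham saline of set 1 and 42.5 CPM in set 2. SNI libraries were above sham libraries within each set. Only 3 members showed this separation in set 1, against 2.35% of all genes. Without sham saline library 2, 38 members were higher at an unadjusted p under 0.05, against 5.94% of all genes, with a median of 0.13, and without the 4 libraries 40 were, against 6.29% of all genes, with all 76 above 0 and a median of 0.15. The SNI saline libraries also enter the comparisons of desipramine and tianeptine with saline in SNI mice, so these comparisons share the same 5 libraries and are not independent.

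**Figure D3:**
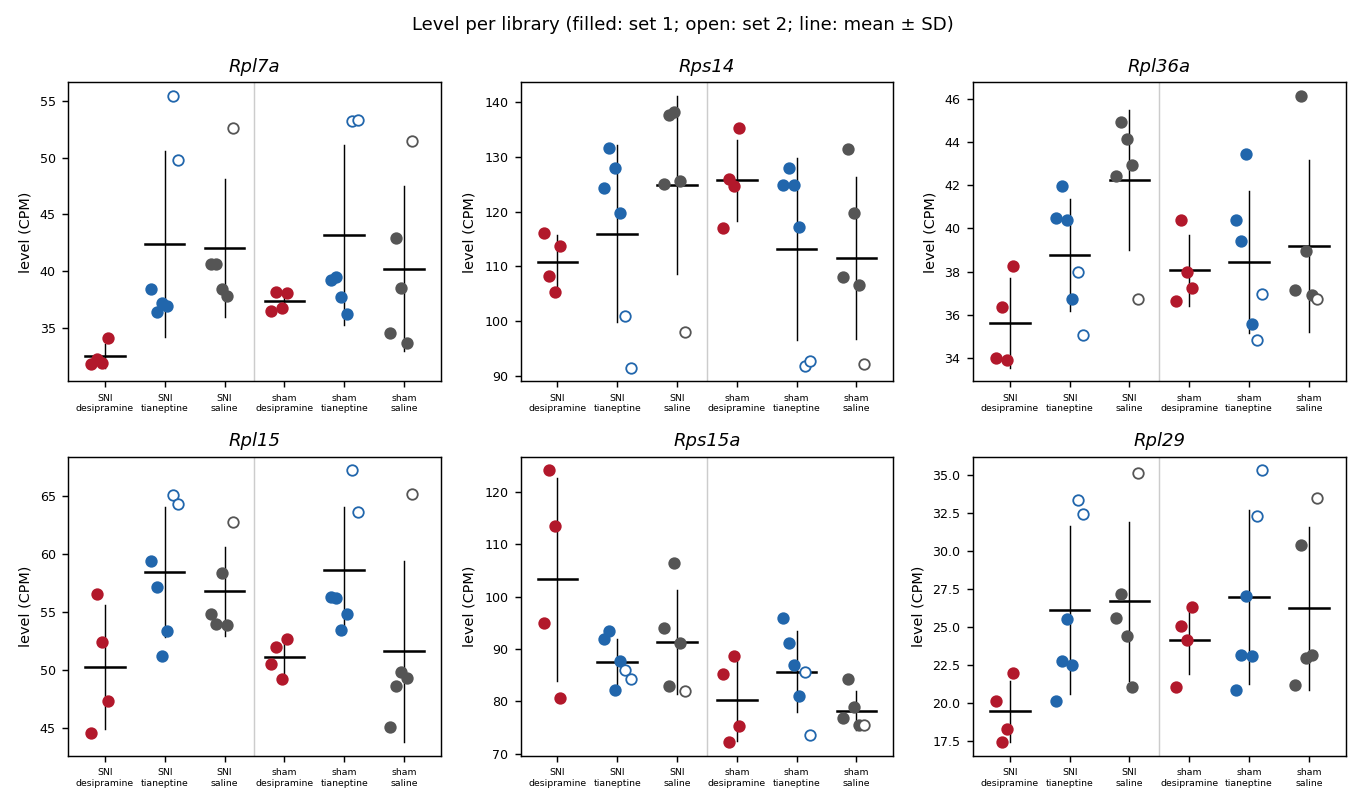
Level (y axes, CPM) of Rpl7a, Rps14, Rpl36a, Rpl15, Rps15a and Rpl29 in each library by group (x axes); filled points are library set 1, open points set 2, and lines give the mean ± SD. Within set 1 the SNI desipramine libraries of Rpl7a (31.9 to 34.1 CPM) lie below those of SNI tianeptine, SNI saline and sham desipramine, Rps15a is spread from 80.7 to 124 CPM in that group, and set 2 lies above set 1 for Rpl7a and below it for Rps14.

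The single comparison in which members passed the test was SNI against sham under desipramine. EdgeR called 4 members, 1 higher and 3 lower, a share of 5.26% beside 11.3% of all genes called (7.22% higher and 4.08% lower). Rps15a rose by 0.36 (log2 fold change, SE 0.097, edgeR adjusted p 0.0200), and Rpl7a fell by 0.20 (SE 0.056, adjusted p 0.0251), Rpl29 by 0.31 (SE 0.10, adjusted p 0.0483) and Rps14 by 0.18 (SE 0.060, adjusted p 0.04999). The median over all members was -0.09 with 63 of 76 below 0 (49% of all genes), beside 0.01 over all genes.

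Rps15a stood at 94.9, 124, 113 and 80.7 CPM in SNI desipramine, against 85.3, 72.2, 88.7 and 75.2 CPM in sham desipramine. The groups overlapped through SNI library 4. Rpl29, a heparin-binding large-subunit protein, stood at 20.1, 17.5, 18.3 and 21.95 CPM in SNI desipramine, against 21.1, 25.1, 24.1 and 26.3 CPM in sham desipramine, again with SNI library 4 among the sham values. Rpl7a was at 31.9, 32.3, 32.0 and 34.1 CPM in SNI desipramine, against 36.5, 38.2, 36.8 and 38.1 CPM in sham desipramine, with no overlap, and for Rps14 the highest SNI library (116 CPM) was below the lowest sham library (117 CPM).

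These calls rest on SNI desipramine library 2: without it 0 members and 0 genes were called, with an adjusted p of 0.0841 for Rpl7a, 0.130 for Rps14, 0.176 for Rpl29 and 0.180 for Rps15a, and log2 fold changes of -0.21, -0.19, -0.28 and 0.24. Without the 4 libraries, which leaves only libraries 1 and 4 of SNI desipramine, 0 members and 0 genes were called. The same pair of groups differed in markers of cell types: of the markers of medium spiny neurons 16 of 16 were lower in SNI desipramine (median log2 fold change -0.61, 0 called), of septal, preoptic and hypothalamic neurons 13 of 15 were higher (median 0.67, 6 called), of astrocytes 11 of 12 were higher (median 0.39, 5 called) and of cortical excitatory neurons 11 of 12 were lower (median -1.94, 0 called). The summed medium spiny neuron markers ranged from 1549 to 10184 CPM in SNI desipramine and from 5955 to 11314 CPM in sham desipramine, and those of cortical excitatory neurons from 192 to 434 CPM in SNI desipramine and from 250.2 to 1580 CPM in sham desipramine, with no marker of these lists but 1 septal gene at 0 in any library. Their part in the result was not tested.

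SNI tianeptine against sham tianeptine gave 22 of 76 members below 0 (49.4% of all genes) and a median of 0.01, with 0 members called by edgeR, DESeq2 and limma-voom, 0 genes called by edgeR (0%) and 0 members at an unadjusted p under 0.05, against 0.906% of all genes lower and 0.303% higher. A test of any difference among the 6 groups called 368 genes (1.55%) with edgeR and 0 members, with 10 members at an unadjusted p under 0.05 (13.2%) against 20.9% of all genes. DESeq2 called 5 members and 2151 genes there, and limma-voom 0 members. The smallest adjusted p of members in that test were 0.0664 (Rpl7a), 0.0929 (Rps15a) and 0.0931 (Rps14).

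Other genes of the translation machinery were set beside the members, each list given by its counts in SNI desipramine against SNI saline, in which edgeR called 0 genes of any list. Of 26 further TOP mRNA genes outside the symbol rule, such as Fau, which encodes a small-subunit protein as a fusion to a ubiquitin-like protein, 22 were lower, 7 of them at an unadjusted p under 0.05, with a median log2 fold change of -0.10. Fau had -0.24 and the initiation factor subunit Eif3l -0.14. Of 35 genes listed as initiation, elongation and termination factors 14 were lower and 21 higher, with a median of 0.01. The scaffold Eif4g2 had 0.22 and the helicase Eif4a1 -0.17.

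Of 66 ribosome biogenesis genes 48 were lower with a median of -0.05, the H/ACA particle protein Nhp2 at -0.49 (edgeR adjusted p 0.0724) among them. Of 40 regulators of mTOR and TOP mRNAs 22 were higher and 18 lower with a median of 0.02, with Larp1, which binds the tract printed above, at 0.31 (edgeR adjusted p 0.0769), and Rptor, the raptor subunit of mTOR complex 1, at 0.24 (adjusted p 0.0973). Of 78 mitochondrial ribosomal protein genes 57 were lower with a median of -0.06, and of 77 nuclear-encoded oxidative phosphorylation genes 44 were lower with a median of -0.03. Of 124 tested ribosomal protein pseudogenes, whose reads may come from the members, 108 were lower with a median of -0.21. None of these medians was further below 0 than that of the members except that of the pseudogenes.

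In the same comparison all 10 abundant nuclear long noncoding RNAs were higher (median 0.18, 2 at an unadjusted p under 0.05), and all 13 mitochondrial genome messenger RNAs were higher (median 0.15, 0 at an unadjusted p under 0.05). Of the cell type markers, 16 of 16 of medium spiny neurons were lower (median -0.40), 13 of 15 of septal, preoptic and hypothalamic neurons higher (median 0.43), 10 of 12 of astrocytes higher (median 0.22), 12 of 12 of endothelial cells higher (median 0.29), 10 of 12 of cortical excitatory neurons lower (median -0.51) and 10 of 12 of fibroblasts and meninges lower (median -0.31). Markers of oligodendrocytes and of microglia were split 6 to 6, with medians of -0.00 and 0.01, and 7 of 11 of choroid plexus and ependyma were higher (median 0.20). The summed medium spiny neuron markers ranged from 1549 to 10184 CPM in SNI desipramine and from 5780 to 9763 CPM in SNI saline. Their part in the members' difference was not tested, beside the counts above without the 4 libraries.

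In sham desipramine against sham saline 14 of the 26 further TOP genes were lower (median -0.00), 30 of 35 translation factors were higher (median 0.04), 14 of 16 medium spiny neuron markers were lower (median -0.16), 12 of 12 oligodendrocyte markers were lower (median -0.25) and 9 of 15 septal markers were higher (median 0.00). Short genes differed from long ones in SNI desipramine against SNI saline: non-members under 1000 bases of exon had a median of -0.08 and those of 5000 bases or more a median of 0.04. The members were lower than that in each class with at least 9 of them, with medians from -0.20 (under 1000 bases) to -0.16 (from 1500 to under 2000 bases).

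**Figure D4:**
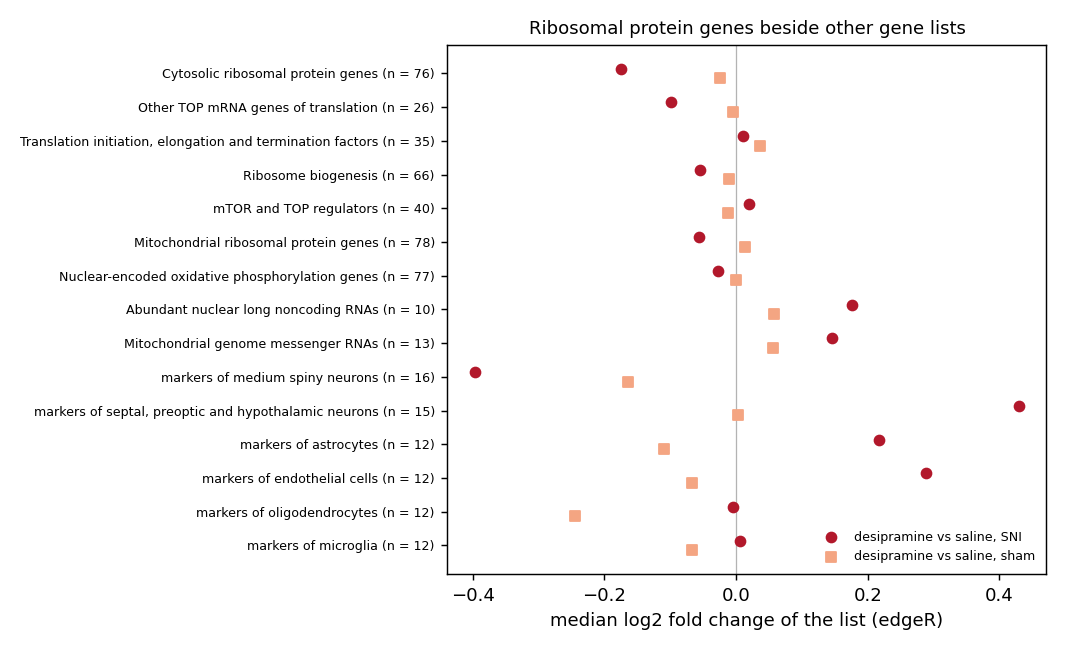
Median log2 fold change (x axis, edgeR) of each gene list (rows, with the number of genes tested) for desipramine against saline, as red circles in SNI mice and orange squares in sham mice. In SNI mice the ribosomal protein genes stand at -0.17, beside -0.10 for other TOP mRNA genes, -0.40 for medium spiny neuron markers and 0.43 for septal, preoptic and hypothalamic markers.

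The members varied together from library to library. With group and library set removed, the median Pearson r between pairs of members was 0.73 over the 30 libraries (2850 pairs), and 95.9% of pairs were above 0. The pairs share libraries and their depth, so this is a description. Their spread within groups had a median SD of 0.111 on the log2 scale, against 0.131 for the 11926 tested genes of at least 10 CPM. Rpl17, Rpl31 and Rps27a were the most variable (SD 0.203, 0.176 and 0.173), and Rpl23, Rps24 and Rpl7a the least (0.066, 0.073 and 0.073).

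Rps15 followed the other members most closely, with r 0.97 to their mean, and 3 members did not follow them. Rpl23a, which sits at the tunnel exit where the signal recognition particle docks, had r -0.14, Rps15a 0.01 and Rpl15 0.14. Of the exonic bases of Rpl23a, 59.7% overlap the gene Tlcd1 on the opposite strand, and the strand setting of the counting is not given, so reads of these genes cannot be told apart. Rpl23a stood at 21.7, 20.7, 18.7 and 18.99 CPM in SNI desipramine, against 22.5, 20.1, 17.6 and 20.4 CPM in SNI saline of set 1 and 29.1 CPM in set 2, a log2 fold change of -0.01. Exonic overlap with another gene was found for 27 members on the same strand and 18 on the opposite strand, and it took over 10% of exonic bases in 9 and 7 of them.

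Of the 11850 other tested genes of at least 10 CPM, those most like the mean of the members over the 30 libraries were Gm45713 (r 0.96), Fau (0.96), Nop53 (0.93), Grcc10 (0.91) and Gm28037 (0.91). Gm45713 overlaps the exons of Rpl13a and Gm28037 those of Rpl24, so they share reads with members. Among the 100 genes most like the members were 8 of the 25 further TOP genes compared, 3 of 77 mitochondrial ribosomal protein genes, 1 of 35 translation factors and 0 of 66 biogenesis genes.

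By edgeR, more members were called between the library sets (48 of 76) than in any comparison of groups. This comparison was made after the values were seen, and the genes named in it were chosen for their values. Set 2 against set 1, with the group in the fit, had 19 members higher and 29 lower by edgeR at an adjusted p under 0.05, together 63.2% of members beside 32.3% of all genes (16.5% higher and 15.8% lower). The libraries of the 2 sets (6 against 16 of saline and tianeptine mice) did not overlap for 32 members (42.1%), against 10.4% of all genes. Single members moved in opposite directions, from -0.68 (Rps21) to 0.79 (Rps23) on the log2 scale, while the median was only -0.05, beside 0.01 over all genes.

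Rps23, a protein of the decoding centre, averaged 69.4 ± 2.43 CPM in set 2 (n = 6) and 40.3 ± 3.30 CPM in set 1 (n = 16), a difference of 0.79 (SE 0.050, edgeR adjusted p 5.48e-13). Rpl7a averaged 52.7 ± 1.89 CPM in set 2 and 38.0 ± 2.32 CPM in set 1, a difference of 0.47. Rps21 averaged 57.0 ± 3.13 CPM in set 2 and 91.5 ± 10.2 CPM in set 1, Rps15 129 ± 5.52 CPM in set 2 and 186 ± 14.8 CPM in set 1, and Rpl4 265 ± 6.52 CPM in set 2 and 358 ± 21.3 CPM in set 1, with differences of -0.68, -0.52 and -0.43. Over the 76 members the difference was more positive where fewer 50-base stretches are unique (Pearson r -0.46, Spearman rho -0.48), and varied little with exon length (Pearson r 0.10). Of 124 ribosomal protein pseudogenes 105 were lower in set 2, 87 of them past the test and 11 higher past it, with a median of -0.84, and their summed level was 209 to 236 CPM in set 2 and 327 to 440 CPM in set 1. The sets also differ in depth, and depth, sequencing and any difference in processing cannot be told apart here. Desipramine has no library in set 2, so its comparisons with saline rest on set 1 and on the set term.

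**Figure D5:**
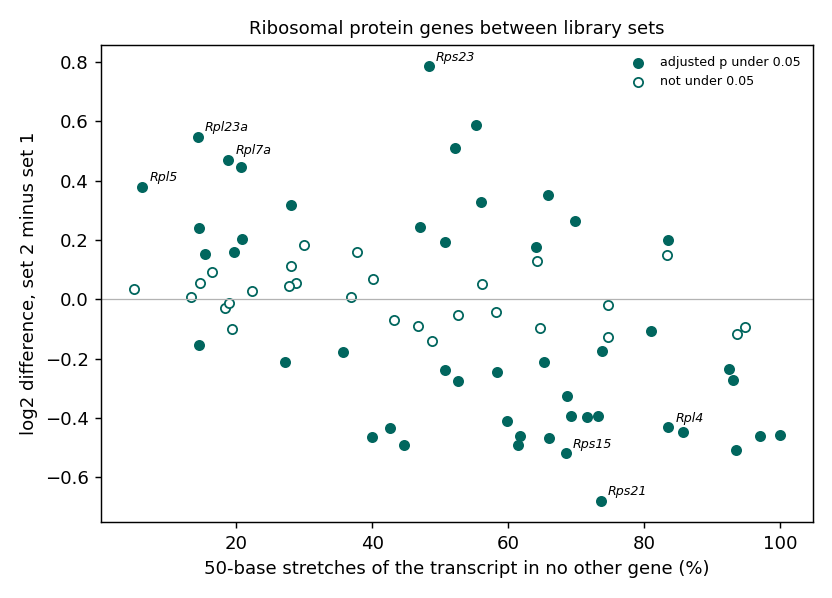
Log2 difference of each member between library set 2 and set 1 (y axis) against the share of its 50-base transcript stretches found in no other gene (x axis, percent); filled points passed edgeR's test at an adjusted p under 0.05. Rps23 (0.79), Rpl23a (0.55), Rpl7a (0.47) and Rpl5 (0.38) lie above 0 and Rpl4 (-0.43), Rps15 (-0.52) and Rps21 (-0.68) below it.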

How the data were processed

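Per the submitters' processing notes, the tools were Trim Galore, HISAT2, SAMtools and featureCounts, with mm10 as the genome. Their versions, the strand setting, the handling of multi-mapping reads and the annotation release could not be found in the labels. The deposited values were whole-number counts per gene, made by the authors with no normalization, for 30 libraries (24.51 to 120.7 M counts). RNA was extracted with TRIzol and libraries made with a stranded mRNA kit, per the labels' protocols.

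IDs were named with GENCODE M21 (54349 of 55401 matched exactly and 792 without their version). The 260 unmatched IDs held 0.051% of counts. Genes were tested with edgeR 4.0.16 (R 4.3.3) by robust quasi-likelihood F tests after filterByExpr and TMM scaling, with 6 group coefficients and a term for library set. P-values were adjusted by Benjamini-Hochberg across the 23736 genes that passed the filter, and 0.05 was the threshold. CPM are counts divided by the TMM-scaled library size in M. DESeq2 1.42.0, limma-voom (limma 3.58.1), RLE scaling, no filter, no set term, set 1 alone, a replicate block, omission of 4 libraries and of each library were alternatives. Members, gene lists and tests were chosen with earlier results of these data known. Named members were the 4 with the smallest p per direction of each comparison, the extremes of level and spread, and the stalk, Rpsa, Rps6, Rpl22, Rpl41 and uncorrelated members; others are examples chosen after their values were seen. A few named genes are not reported here. No libraries of a group agreed within counting noise (chi-square per degree of freedom of at least 7.51). On data simulated for SNI desipramine against SNI saline over 23736 genes, 46 of 50 genes lowered and 48 of 50 raised by 1 log2 unit were recovered, and 3 of 50 and 3 of 50 at 0.25. Each library is 1 animal, and p-values measure the spread between animals.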

Additional observations from a re-analysis of the deposited data

Results flagged for a closer look

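Of 192 sets of values checked (the members named by rule and the summed level, in each group), 10 held 1 library further from the rest than Dixon's 95% limit allows; chance flags about 1 in 20 such sets. In sham saline, library 2 had the highest summed level of the 76 genes (7215 CPM, against 5550 to 5976 CPM in the others), and also stood out for Rpl35a (25.5 CPM, against 18.9 to 20.8 CPM) and Rpl36a (46.1 CPM, against 36.7 to 38.9 CPM). The single set 2 libraries were apart for Rpl15 (65.2 CPM in sham saline 5, against 45.0 to 49.9 CPM), Rpl23a (28.5 CPM in sham saline 5, against 18.9 to 21.5 CPM), Rpl5 (106 CPM in sham saline 5, against 71.0 to 77.0 CPM) and Rpl7a (52.6 CPM in SNI saline 5, against 37.8 to 40.7 CPM). The other 3 were Rpl35a in SNI desipramine 4 (20.4 CPM, against 18.7 to 18.9 CPM), Rps27 in SNI tianeptine 4 (48.9 CPM, against 56.0 to 60.2 CPM) and Rpl22 in sham tianeptine 3 (77.2 CPM, against 68.4 to 71.2 CPM).

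Rps14 and Rps15 lay on opposite sides of the saline means under desipramine in the 2 surgeries. Both were among the members named for the smallest interaction p, so this sign difference is not separate evidence. For Rps14 all 4 SNI desipramine libraries were below the SNI saline mean (mean difference -13.95 CPM), and all 4 sham desipramine libraries were above the sham saline mean (mean difference 14.1 CPM). For Rps15 the differences were -15.16 CPM in SNI and 19.44 CPM in sham. Each saline mean includes 1 library of set 2, where both genes were lower. By edgeR with the set as a term, the sham log2 fold changes were 0.10 for Rps14 (adjusted p 0.722) and 0.07 for Rps15 (adjusted p 0.877). In SNI mice they were -0.24 (adjusted p 0.0769) and -0.21 (adjusted p 0.132). By edgeR's interaction test, with the set as a term, the difference of the fold changes was -0.34 for Rps14 (adjusted p 0.227) and -0.28 for Rps15 (adjusted p 0.287), and neither passed.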

How the results depend on the processing

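Of the recomputed counts and medians, 710 stayed within the limits set for an unchanged result and 52 moved. A median stayed if it shifted by less than 0.092, the pooled SD of the members' mean log2 level between libraries of a group. That limit is wider than most of the medians, so a small median could change sign and still count as unchanged. The median of sham desipramine against sham saline did so without the 4 libraries. Counts of 0 in both fits also counted as unchanged. Another 1341 values were counts of all genes called, of members below 0, smaller counts of members at an unadjusted p under 0.05, levels per kb and single-member fold changes. Of these, 1124 stayed, 155 moved, 34 lost and 27 gained a call and 1 reversed. The 155 that moved were counts or levels per kb, not single-member fold changes. The reversed value was Rps15a in SNI desipramine against SNI tianeptine, -0.043 without the 4 libraries that stand apart, against 0.20 with them. With DESeq2, members called numbered 15 in SNI desipramine against SNI saline, 1 for desipramine over both surgeries, 1 for its interaction, 4 in SNI desipramine against SNI tianeptine (1 with RLE size factors) and 5 for any difference, where edgeR called 0 in each, with 19 members at an unadjusted p under 0.05 for any difference, against 10 with edgeR. Without the set term, members at an unadjusted p under 0.05 numbered 27 in SNI desipramine against SNI saline, 5 for the interaction and 4 for any difference. Without the 4 libraries they numbered 5 over both surgeries, 40 for the interaction (median -0.24) and 13 in SNI desipramine against SNI tianeptine, and the median of the tianeptine interaction was -0.14. The 4 calls of SNI against sham under desipramine were 2 with limma-voom, 2 with no filter, 2 in set 1 alone, 1 without the set term and 0 without the 4 libraries. The cause of these changes was not tested. Where no share of all genes is given for a fit, its count of members cannot be set against the background. In the main fit the members' share was below that of all genes for these calls (5.26% beside 11.3%). The same held for any difference at an unadjusted p under 0.05 (13.2% beside 20.9%).

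Leaving out each library in turn gave, in SNI desipramine against SNI saline, 0 to 21 members called, 32 to 50 at an unadjusted p under 0.05 and medians of -0.20 to -0.15. Over both surgeries it gave 0 to 1 called and 9 to 56 at an unadjusted p under 0.05, and for the interaction 0 to 3 called, 8 to 42 at an unadjusted p under 0.05 and medians of -0.19 to -0.10. SNI against sham under desipramine gave 0 to 8 called. SNI desipramine against SNI tianeptine gave 0 to 14 called and 12 to 33 at an unadjusted p under 0.05. Any difference gave 0 to 5 called and 6 to 26 at an unadjusted p under 0.05. All these ranges count members only. The share of all genes called also changed with the library left out, as the values given above for single omissions show. The ranges therefore cannot be set against the background.

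Replicate numbers did not pair the libraries: same-numbered libraries of different groups had r of -0.63 to 0.41 (60 pairs, median -0.01), and 3 of 24 correlated best with their own number. With the number as a replicate block, 2 members were called in SNI against sham under desipramine and 0 in every other comparison. Every member had counts in all libraries, which held at least 24.51 M counts each.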

Other observations

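SNI against sham under desipramine was also the comparison in which other genes of ribosome production passed edgeR's test, on the background of 11.3% of all genes called. Of 66 ribosome biogenesis genes 2 were higher and 7 lower, among them Nhp2, a core protein of H/ACA particles (log2 fold change -0.55, SE 0.11, adjusted p 0.00667), Tsr1, a factor of small-subunit maturation (-0.43, SE 0.10, adjusted p 0.0129), and Nop56, a core protein of C/D box particles (0.22, SE 0.059, adjusted p 0.0187). Of 26 further TOP genes 2 were lower, Eif3l (-0.18, adjusted p 0.0123) and the poly(A)-binding protein gene Pabpc1 (-0.27, adjusted p 0.0444). Of 35 genes listed as translation factors 1 was higher, Eef1e1 (0.29, adjusted p 0.0431), which despite its symbol is not itself an elongation factor. Of 78 mitochondrial ribosomal protein genes Mrps17 was lower (-0.34, adjusted p 0.00668) and Mrps5 higher (0.34, adjusted p 0.00819). Without SNI desipramine library 2, in which markers of medium spiny neurons were at 1549 CPM, edgeR called 0 of all genes in this comparison.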
